A study of Mus musculus with 3 samples.

Results

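The Notch pathway genes examined were 3 receptors (Notch1, Notch2 and Notch3), 4 ligands (Dll1, Dll4, Jag1 and Jag2) and 3 transcriptional targets (Hes1, Hey1 and Hey2) of the mouse. They were chosen by name: every array probe whose RefSeq accession belongs to one of these symbols was taken. This gave 12 of the 39429 distinct probes and 10 of the 21153 genes that could be named. Of the 12 probes, 10 were bright enough to be tested, 1 for each gene. RNA was taken on day 8 of differentiation towards heart muscle from embryoid bodies, which are clusters that embryonic stem cells form as they differentiate. Hopx-/- embryoid bodies grown with XAV939 at 12.5 µM were set against Hopx+/- embryoid bodies, for which no inhibitor is named. XAV939 inhibits tankyrase and so lowers Wnt signalling through β-catenin. Both came from stem cell lines made from blastocysts and kept on feeder cells, and the plating medium contained VEGF, bFGF, FGF10 and ascorbic acid. The sources used here do not give how many lines of each genotype were used. Genotype and inhibitor differ together between the groups, so their parts in any difference cannot be told apart.

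Notch receptors are cleaved when a Delta or Jagged ligand on a neighbouring cell pulls on them. The freed intracellular domain enters the nucleus, joins the DNA-binding protein RBPJ and a Mastermind coactivator, and switches on repressors of the HES and HEY families. In the embryo the pathway is known for lateral inhibition among neural progenitors, for the segmentation of presomitic mesoderm, for the arterial identity of endothelium, and for the valves, trabeculae and chamber boundaries of the heart. RNA levels of receptors and ligands do not report pathway activity directly, whereas targets such as Hes5 and Nrarp are commonly read as such.

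Each of the 3 two-colour Agilent arrays compared the 2 RNAs directly and is a biological replicate per the labels. On the 3 arrays 56.6% to 66.6% of probes were well above background for the null RNA and 61.6% to 68% for the heterozygous RNA. The ratio of replicate 3 ran opposite to its labelled dyes: across genes its Cy5 over Cy3 ratios correlated at -0.878 with replicate 1 and at -0.908 with replicate 2, while replicates 1 and 2 correlated at 0.965. It was turned to match the sign of the authors' processed values, so the direction is likely rather than settled. It rests on the labels of replicates 1 and 2, on the authors' values, and on Hopx, the targeted gene, which was 6.54-fold lower in the null cultures (log2 ratio -2.71 ± 0.05, SD, n = 3; limma, adjusted p = 1.99e-07). The sources used here do not say whether the Hopx probe falls within the deletion. If the opposite direction held, every sign below would turn. Heart muscle was present by its markers: all 10 listed genes were well above background in both RNAs on all 3 arrays.

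In the null cultures with XAV939 the ligand gene Dll1 was higher, and the receptor gene Notch1, the ligand gene Jag2 and the target gene Hey1 were lower, by 1.28-fold to 1.51-fold. The other 6 genes did not pass the test. All ratios are given as log2 of null with XAV939 over heterozygous, and a gene was called at an adjusted p below 0.05 by limma's moderated test over 14710 genes. By this rule 4 of the 10 genes were called, against 64.5% of all genes tested. Over single probes 4 of 10 tested were called, against 60.1% of all probes. In the higher direction 1 of 10 was called, against 31.5% of all genes, and in the lower direction 3 of 10, against 33%. The median absolute log2 ratio was 0.235 over the 10 genes and 0.436 over all genes. None of the 10 reached an absolute log2 ratio of 1, which 17.3% of all genes did, although Notch1 passed 1 under 2 other ways of removing the background, given below. Well above background in both RNAs on all 3 arrays were 8 of the 10, all but Notch1 and Hes1. With that required of every gene, 1 of these 8 was higher (Dll1) and 2 were lower (Jag2 and Hey1). Of all 13177 genes tested that way, 4243 were higher and 4324 lower. The sign was the same on all 3 arrays for 7 of the 10 and for 77.8% of all genes.

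**Figure D1:**
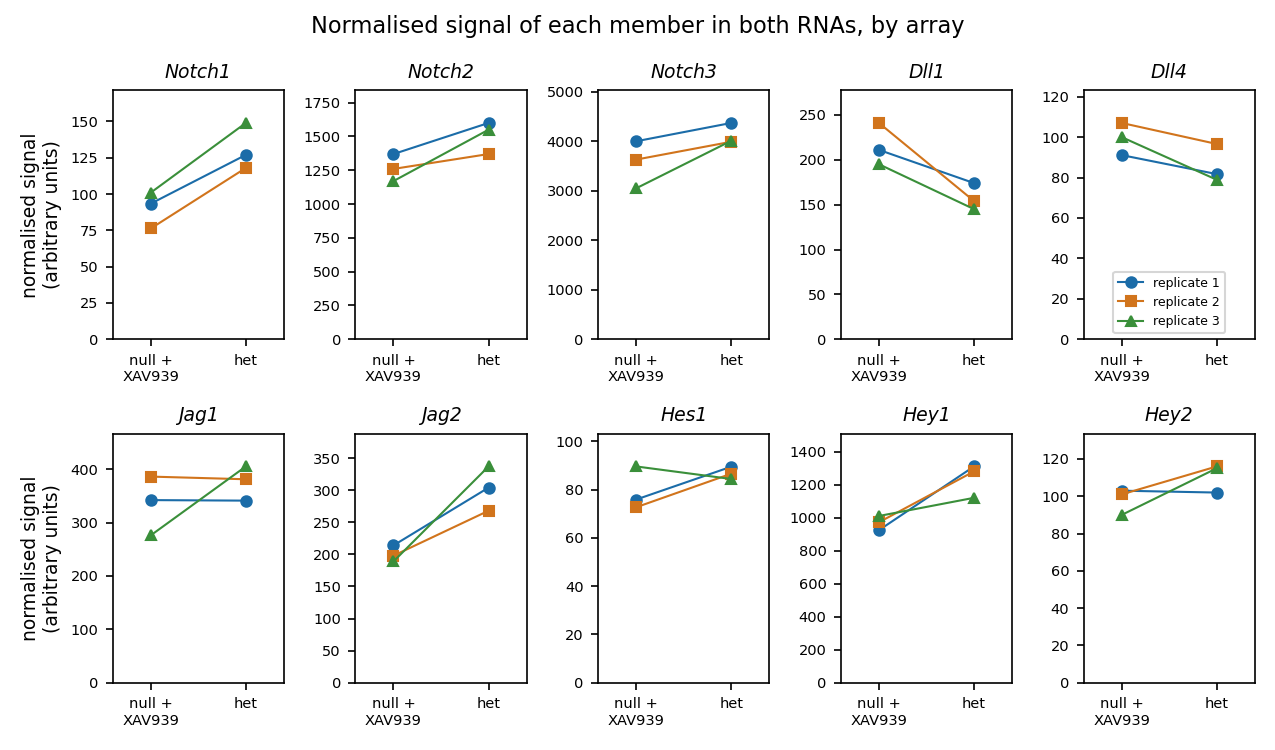
Normalised signal (arbitrary units, linear axis from 0, a separate axis for each gene) of the 10 genes in null cultures with XAV939 (left of each panel) and in heterozygous cultures (right); a line joins the 2 RNAs of 1 array. Lines for Notch1, Jag2 and Hey1 slope up towards the heterozygous RNA on all 3 arrays, those for Dll1 slope down on all 3, and for Jag1, Hes1 and Hey2 the arrays differ in direction.

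Of the 3 receptors Notch1 was lower in the null cultures with XAV939, and Notch2 and Notch3 did not pass the test. Notch1, on chromosome 2, encodes the receptor that acts in early heart, endothelium and somites. Its probe (A_55_P2171897) had normalised signals of 93.4, 76.3 and 101 units in null cultures and 127, 118 and 149 units in heterozygous cultures, in the order of replicates 1 to 3. These units are arbitrary and hold a constant offset of 50 added during background correction, so differences of dim probes are understated. Every null value lay below every heterozygous value. The log2 ratios were -0.44, -0.63 and -0.57, a mean of -0.55 ± 0.10 (SD, n = 3), or 1.46-fold lower (limma, adjusted p = 0.00126). The null signal was dim: it was well above background on 1 of the 3 arrays, against 3 of 3 for the heterozygous signal. Notch1 therefore passed the brightness filter through the heterozygous RNA, where it is higher, and its fold is uncertain. The deposited median signal of the null RNA was 131, 70 and 55 intensity units over local backgrounds of 46, 42 and 30, and that of the heterozygous RNA was 76.5, 84 and 148 over 23, 29 and 42. The raw numbers are not comparable between the RNAs of an array, since each was read in its own dye. A second Notch1 probe (A_55_P2047168) was not well above background on any array in either RNA and was not tested, at a log2 ratio of -0.03 ± 0.033.

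The size of the Notch1 difference depended on how the background was removed. The log2 ratio was -1.65 with the log ratio of the scanner software (adjusted p = 0.00286) and -1.16 with floored background subtraction. It was -0.25 with outlier-marked local backgrounds kept (adjusted p = 0.213), -0.59 with median centring (adjusted p = 0.0508) and -0.26 in the authors' processed values (adjusted p = 0.148), and Notch1 was not called in these 3. All 14 settings that could test Notch1 kept the negative sign.

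Notch2, on chromosome 3, encodes a widely expressed receptor. It had signals of 1370, 1260 and 1170 units in null cultures and 1600, 1370 and 1550 units in heterozygous cultures. The null signal was the lower of the pair on every array, and the highest null value was about equal to the lowest heterozygous one. The log2 ratio was -0.25 ± 0.14 and did not pass (limma, adjusted p = 0.0623). It was called lower in 4 of the 15 alternative settings, among them the authors' processed values at -0.36. A second Notch2 probe was not well above background in the null RNA on any array, was so in the heterozygous RNA on 2, and was not tested.

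Notch3, on chromosome 17, encodes the receptor typical of mural cells, the pericytes and smooth muscle around vessels. Its signals were 4000, 3630 and 3050 units in null cultures and 4370, 3990 and 4010 units in heterozygous cultures. The null signal was lower on each array, but the ranges of the groups overlapped, since replicate 1 of the null cultures lay just above replicate 2 of the heterozygous ones. The log2 ratio was -0.22 ± 0.15 (limma, adjusted p = 0.0961). With median centring it was 0.04, the only setting of 15 that turned its sign.

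The ligands moved in different directions. Dll1, on chromosome 17, encodes a Delta ligand of presomitic mesoderm and neural progenitors. Its probe is printed at 10 spots on each array, which gives it a technical spread that the other genes lack. The mean signals were 211, 241 and 195 units in null cultures and 174, 154 and 145 units in heterozygous cultures. All null values lay above all heterozygous ones. The log2 ratios were 0.28, 0.65 and 0.43, a mean of 0.45 ± 0.18 (SD, n = 3), or 1.37-fold higher (limma, adjusted p = 0.00579). Among the 10 spots the ratio ran between 0.18 and 0.43 on replicate 1, between 0.42 and 0.81 on replicate 2, and between 0.28 and 0.59 on replicate 3. Every spot of Dll1 was therefore higher in the null RNA, and the spread within an array (SD 0.065, 0.129 and 0.089) was below the spread between arrays. The call was lost without replicate 2 (0.36, adjusted p = 0.0899), and also with marked backgrounds kept (0.25, adjusted p = 0.144), median centring (0.46, adjusted p = 0.138) and the authors' processed values (0.33, adjusted p = 0.0707). With the scanner software's log ratio it was 0.75.

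Dll4, on chromosome 2, encodes the Delta ligand of arterial and sprouting endothelium. Its signals were 91.1, 107 and 100 units in null cultures and 81.7, 96.6 and 78.9 units in heterozygous cultures. The null value was the higher one on each array, while the groups overlapped across arrays. The log2 ratios were 0.16, 0.14 and 0.35, a mean of 0.22 ± 0.11 that did not pass (limma, adjusted p = 0.0906). It was called higher in 4 of 15 alternative settings, and reached 0.59 with floored background subtraction and 0.57 with the scanner software's log ratio (adjusted p = 0.0219).

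Jag1, on chromosome 2, encodes a Jagged ligand of the heart's outflow tract, smooth muscle and inner ear. It had signals of 342, 386 and 276 units in null cultures and 341, 381 and 405 units in heterozygous cultures. Replicates 1 and 2 showed almost equal values in the 2 RNAs, and replicate 3 alone was lower in the null RNA. The log2 ratios were 0.00, 0.02 and -0.55, a mean of -0.18 ± 0.32 (limma, adjusted p = 0.27). Without replicate 3 the ratio was 0.01 (adjusted p = 0.916).

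Jag2, on chromosome 12, encodes the second Jagged ligand. Its signals were 214, 198 and 189 units in null cultures and 304, 268 and 337 units in heterozygous cultures. The groups did not overlap. The log2 ratios were -0.51, -0.44 and -0.84, a mean of -0.59 ± 0.21 (SD, n = 3), or 1.51-fold lower (limma, adjusted p = 0.00164). Jag2 was called lower in 13 of the 15 alternative settings. The exceptions were marked backgrounds kept (-0.38, adjusted p = 0.152) and median centring (-0.57, adjusted p = 0.0969).

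**Figure D2:**
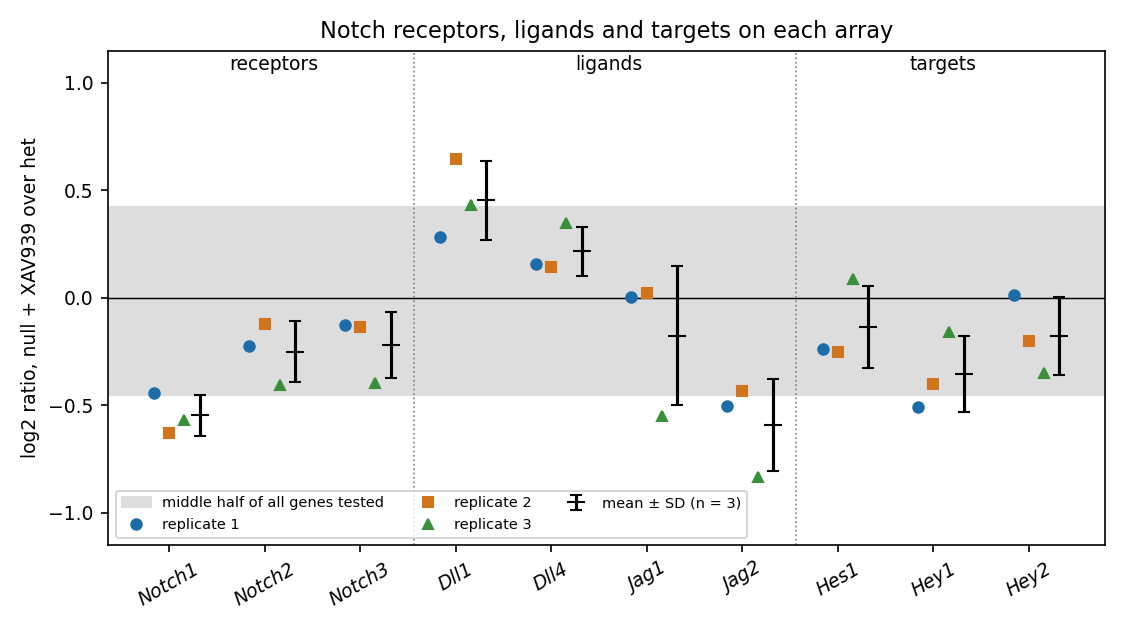
Log2 ratio of null with XAV939 over heterozygous on each array (coloured points) for the 10 genes by role, with the mean ± SD of the 3 arrays (black) and, in grey, the span between the lower and upper quartile of all 14710 genes tested (-0.45 to 0.42). The means of Notch1 and Jag2 lie below the grey span, that of Dll1 lies just above it, and the other 7 lie inside.

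None of the targets was called higher. Hey1, on chromosome 3, encodes a repressor of atrial and endothelial cells. Its signals were 924, 972 and 1010 units in null cultures and 1310, 1280 and 1120 units in heterozygous cultures, without overlap. The log2 ratios were -0.51, -0.40 and -0.16, a mean of -0.36 ± 0.18 (SD, n = 3), or 1.28-fold lower (limma, adjusted p = 0.0179). The call was lost without replicate 1 (-0.28, adjusted p = 0.155) or without replicate 2 (-0.33, adjusted p = 0.122), and with median centring it was -0.20 (adjusted p = 0.514). It was also lost with marked backgrounds kept (-0.22, adjusted p = 0.12), floored background subtraction (-0.36, adjusted p = 0.0527) and the authors' values (-0.26, adjusted p = 0.111).

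Hes1, on chromosome 16, encodes the HES repressor that keeps progenitors undifferentiated. Its signals were 75.9, 72.7 and 89.6 units in null cultures and 89.5, 86.6 and 84.4 units in heterozygous cultures. Replicates 1 and 2 were lower in the null RNA and replicate 3 was higher. The log2 ratio was -0.13 ± 0.19 (limma, adjusted p = 0.312), and each RNA was well above background on 2 of the 3 arrays. Without replicate 3 it was called lower at -0.24 (adjusted p = 0.0275), and with marked backgrounds kept its sign turned, at 0.01.

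Hey2, on chromosome 10, encodes the repressor of ventricular muscle and arterial endothelium. Its signals were 103, 101 and 90 units in null cultures and 102, 116 and 115 units in heterozygous cultures. Replicate 1 gave nearly the same level in both RNAs, and replicates 2 and 3 were lower in the null RNA. The log2 ratio was -0.18 ± 0.18 (limma, adjusted p = 0.182). With the scanner software's log ratio it was -0.62 (adjusted p = 0.0511).

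The promoters were searched for the sequence that RBPJ binds, whose core is written TGGGAA, or TTCCCA on the other strand. The 250 bases before the RefSeq start (build GRCm38.p6) were searched on both strands for 8 of the 10 genes; Hes1 and Hey1 had no entry. Hey2 held 1 core, and Notch1, Notch2, Notch3, Dll1 (2 starts), Dll4, Jag1 and Jag2 held 0. For Notch3, Jag2 and 1 of the Dll1 starts, the start searched was not the outermost one of the gene. Of 32851 promoters of the same length, 21.6% held the core. The Hey2 stretch is shown because it is the only one of the 8 with a match, with the core in capitals, at chr10:30842784-30843033 on the minus strand, 5′ to 3′. The match begins 207 bases before the start.
Hey2: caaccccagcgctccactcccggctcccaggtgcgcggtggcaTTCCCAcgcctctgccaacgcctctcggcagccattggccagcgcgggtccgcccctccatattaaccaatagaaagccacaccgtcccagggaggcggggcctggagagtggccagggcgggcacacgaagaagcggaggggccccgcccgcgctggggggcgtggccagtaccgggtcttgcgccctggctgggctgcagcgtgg

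Hes5, a target outside the 10 that is described below with a large difference, held 2 cores. Both lie in the longer form GTGGGAA, which contains TGGGAA and was found in 5.42% of the promoters. The stretches are shown to set them beside the Hey2 one, on the plus strand, with the core in capitals, at chr4:154960685-154960714 and chr4:154960829-154960858. They begin 226 and 82 bases before the start. That start is not the outermost one of Hes5, unlike the Hey2 start, so the bases searched may lie within an annotated Hes5 transcript.
Hes5 upstream core: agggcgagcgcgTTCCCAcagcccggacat
Hes5 downstream core: ggccgccgagtgTGGGAAcggccgcggcgc
The Hey2 match is in the longer form as well. Nrarp held 0 cores and 1 CACGTG, the E-box that HEY factors bind, which 6.02% of promoters held. A match is a string of letters and does not show binding.

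Several other genes of the pathway had larger ratios than any of the 10. Of 50 genes listed by role, 46 were tested. In null cultures with XAV939 12 of them were higher and 18 were lower. That is 65.2% called, beside 64.5% of all genes, with a median log2 ratio of -0.17 against -0.01 for all genes and a range from -2.22 to 2.53. Among the receptors and ligands outside the 10, 2 were higher and 1 lower of 4 tested, or 75% called. Dner was not well above background in either RNA on any array.

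Notch4, the receptor restricted largely to endothelium, was the receptor gene with the largest ratio. It had signals of 783, 741 and 678 units in null cultures and 254, 262 and 229 units in heterozygous cultures, far apart on every array. Its log2 ratio was 1.56 ± 0.063 (SD, n = 3), or 2.95-fold higher (limma, adjusted p = 2.43e-06), and it stayed between 1.07 and 1.98 and called in all 15 alternative settings. Endothelial marker genes moved beside it: of 13 tested, 8 were higher and 2 lower, with a median of 0.43. That is 76.9% called, beside 64.5% of all genes. The summed signal of the 13 overlapped between the groups, at 30100 to 36100 units in null cultures and 33000 to 35600 units in heterozygous cultures. Egfl7 alone gave 16600 to 20000 and 18100 to 20600 units of these sums and did not pass (-0.05 ± 0.14, limma, adjusted p = 0.695). The overlap of the sums therefore does not describe the 13 as a set. Cdh5, the endothelial cadherin, was higher at 1.34 ± 0.25, and so were Cldn5, a tight junction gene (0.99 ± 0.65), and Emcn, a sialomucin (0.96 ± 0.18). The VEGF receptor gene Flt1 (-1.20 ± 0.18) and the angiopoietin receptor gene Tek (-0.34 ± 0.28) were lower. Tek lost its call in 7 of 15 alternative settings, among them those that left out replicate 2 (-0.30, adjusted p = 0.189) or replicate 3 (-0.22, adjusted p = 0.0974). With marked backgrounds kept the endothelial counts were 3 higher and 1 lower, and Cldn5 (0.97, adjusted p = 0.0532) and Emcn (0.44, adjusted p = 0.0977) were not called. The part of endothelial cell number in the Notch4 ratio was not tested. In these bulk cultures a difference in the number of cells of a type and one in RNA per cell cannot be told apart.

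Dll3, a Delta relative that acts inside the cell and not as an activating ligand, was also higher. Its signals were 474, 540 and 481 units in null cultures and 270, 225 and 258 units in heterozygous cultures, a log2 ratio of 0.99 ± 0.24 (limma, adjusted p = 9.24e-05). A second Dll3 probe gave 0.79. Dlk1, a ligand-like gene that lacks the receptor-activating domain, was lower. Its signals were 29600, 19900 and 7970 units in null cultures and 94400, 86300 and 58800 units in heterozygous cultures, the heterozygous spot saturated on 1 array, for a log2 ratio of -2.22 ± 0.61 (limma, adjusted p = 1.6e-05). Saturation understates the heterozygous level on that array. A second, unsaturated Dlk1 probe gave -2.13, or 4.38-fold lower, and the first was called in all 15 alternative settings.

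Among targets and HES relatives outside the 10, 2 of 5 tested were higher and none was lower, or 40% called beside 64.5% of all genes. Hes5, the Notch target of neural progenitors, had signals of 347, 300 and 341 units in null cultures and 118, 88 and 111 units in heterozygous cultures. The groups lay far apart. Its log2 ratio was 1.65 ± 0.11 (SD, n = 3), or 3.13-fold higher (limma, adjusted p = 2.19e-06). With marked backgrounds kept it was 0.85 and not called (adjusted p = 0.0764), and with the scanner software's log ratio 2.87. Hes6, a relative that opposes Hes1, was 1.68-fold higher (0.75 ± 0.27). Nrarp, a feedback inhibitor that Notch switches on, did not pass: its signals were 223, 204 and 157 units in null cultures and 177, 170 and 179 units in heterozygous cultures, higher in the null RNA on 2 arrays and lower on replicate 3 (0.14 ± 0.28, limma, adjusted p = 0.36). Heyl, a HEY relative of vessels and somites, was not tested, since it was well above background on 2 arrays in the null RNA and 1 in the heterozygous RNA (0.28 ± 0.21).

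Markers of neural progenitors moved beside Hes5. Of 7 tested, 6 were higher and none lower, or 85.7% called beside 64.5% of all genes, with a median of 1.56. The median is the value of Zic1, whose second, dimmer probe went the other way (-0.74, limma, adjusted p = 0.000313 over all probes). With the mean over the probes of each gene the list median was 1.07. The summed signal of the 7 was 16300 to 17400 units in null cultures and 2530 to 3090 units in heterozygous cultures. In null replicate 1 Nes gave 8870 and Sox3 5570 units of it. Sox3 (3.38 ± 0.11), Nes (2.60 ± 0.33) and Sox2 (1.85 ± 0.26) rose most. Sox2 and Sox3 are also known from the epiblast, whose 7 listed genes were all higher, beside 31.5% of all genes. Fgf5 (3.99 ± 0.40), Dnmt3b (3.83 ± 0.16) and Otx2 (2.78 ± 0.19) led them. A dim probe of Nanog, one of the 7, went the other way (-0.46 ± 0.18, limma, adjusted p = 0.00544 over all probes), and another gave 0.69. With the mean over the probes of each gene all 7 stayed higher. Pax6, a defining neural gene, was not tested. Neither of its probes was well above background in the heterozygous RNA on any array, and the brighter was so in the null RNA on 1. Sox1, also on the list, did not pass (0.32 ± 0.31, limma, adjusted p = 0.0543), and its dimmer probe gave -0.04. The part of neural progenitor and epiblast cells in the Hes5 ratio was not tested. Of the 8 proneural factors that HES repressors hold down, only 4 could be tested. Among these 1 was higher, or 25% called beside 64.5% of all genes. This was Olig2, at least 1.38-fold, with the heterozygous signal not well above background on any array, so that it was tested through the null RNA alone. Olig2 was not called with marked backgrounds kept (0.18, adjusted p = 0.277), with median centring (0.44, adjusted p = 0.135) or without replicate 1 (0.37, adjusted p = 0.057). Neurog1 lay at -0.02 ± 0.13 and did not pass.

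**Figure D3:**
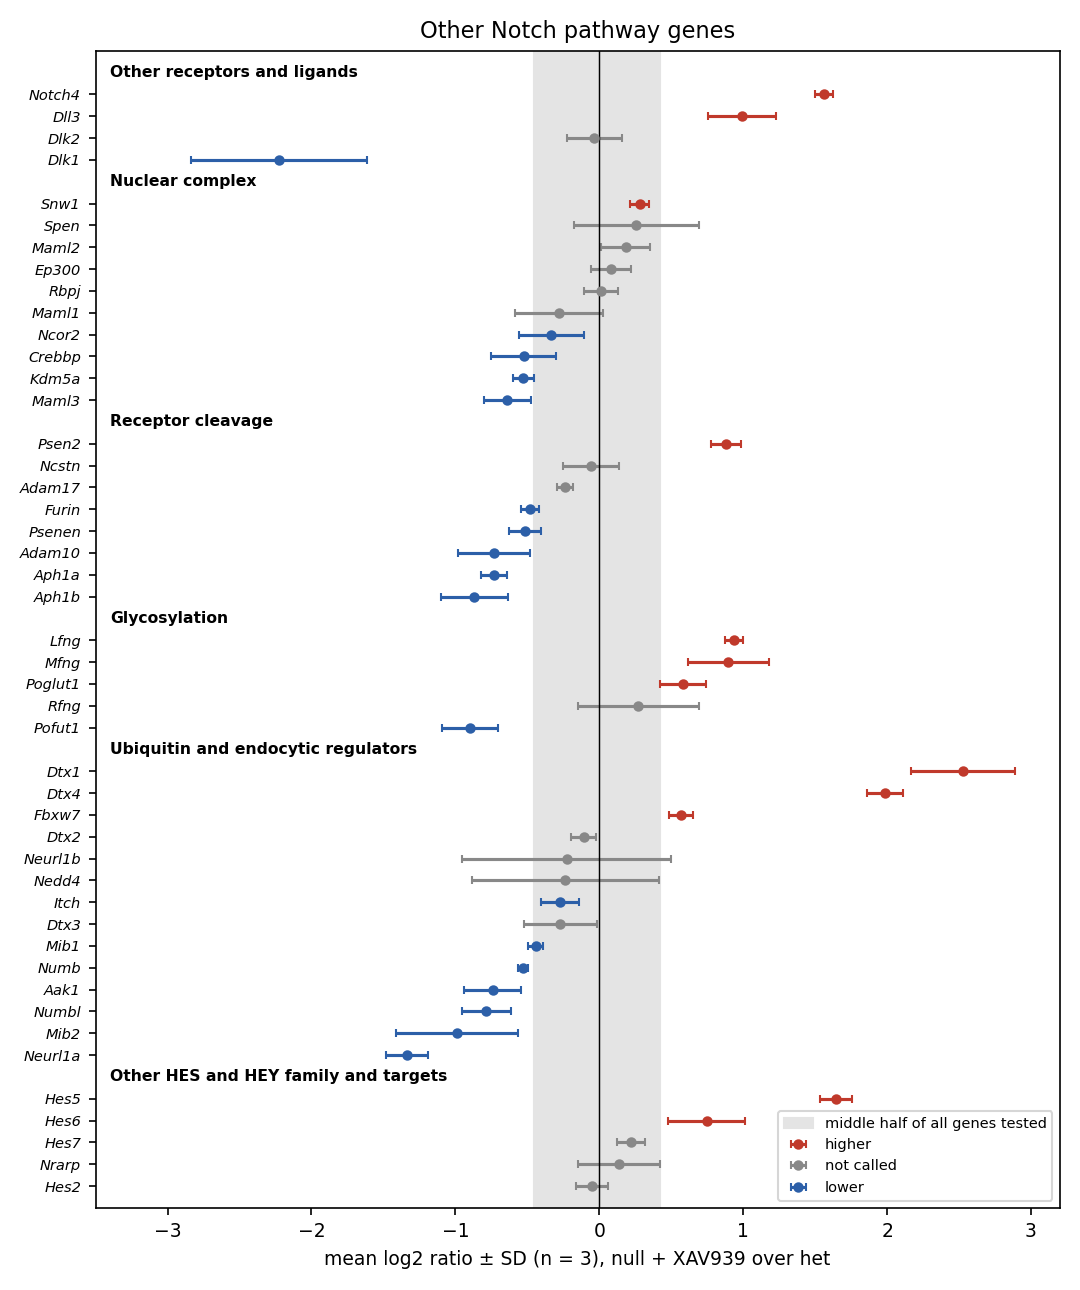
Mean log2 ratio ± SD (n = 3) of null with XAV939 over heterozygous for the 46 tested pathway genes outside the 10, grouped by role; red is called higher, blue called lower, grey not called, and the grey band spans the quartiles of all genes. Dtx1, Dtx4, Hes5 and Notch4 lie farthest right, Dlk1 and Neurl1a farthest left, and Rbpj lies at 0.

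Rbpj, the DNA-binding core of the pathway, did not differ beyond its spread, at 0.01 ± 0.12 (limma, adjusted p = 0.922) from its brighter probe, with 2050, 2280 and 1950 units in null cultures and 2050, 2070 and 2090 units in heterozygous cultures. A dimmer Rbpj probe gave -0.35 ± 0.28 (adjusted p = 0.036 over all probes), so the 2 probes disagree. Of 10 nuclear genes 1 was higher and 4 were lower, by small amounts, or 50% called beside 64.5% of all genes. The coactivator gene Maml3 (-0.64 ± 0.16), the demethylase gene Kdm5a (-0.53 ± 0.071) and the acetyltransferase gene Crebbp (-0.53 ± 0.23) led the falls, and Snw1, a transcription and splicing cofactor, was higher at 0.28 ± 0.066. A second Crebbp probe went the other way at 0.52, and the mean of both was near 0. Further Maml3 probes gave -0.86 and, from the dimmest, 0.08. With median centring or with marked backgrounds kept none of the 10 was called, and Snw1 was also not called without replicate 1 (0.27, adjusted p = 0.17) or replicate 2 (0.26, adjusted p = 0.215).

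Of 8 tested genes of receptor cleavage 1 was higher and 5 were lower, or 75% called beside 64.5% of all genes. The γ-secretase subunit genes Aph1b (-0.87 ± 0.23) and Aph1a (-0.73 ± 0.093) and the ectodomain protease gene Adam10 (-0.73 ± 0.25) fell most. Psen2, one of the catalytic presenilins, was higher, 1.84-fold (0.88 ± 0.11), with 1720, 1760 and 2080 units in null cultures and 1010, 945 and 1060 units in heterozygous cultures. With median centring 1 was higher and 1 lower, and Aph1a (adjusted p = 0.0865) and Adam10 (adjusted p = 0.199) were not called. Aph1b was not called with marked backgrounds kept (-0.62, adjusted p = 0.0724).

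Of 5 tested enzymes that add sugars to the receptors 3 were higher and 1 was lower, or 80% called beside 64.5% of all genes. Lfng, the Fringe enzyme of the segmentation clock, was 1.92-fold higher (0.94 ± 0.061, limma, adjusted p = 4.55e-05), with signals of 249, 202 and 215 units in null cultures and 126, 103 and 118 units in heterozygous cultures. It was not called with marked backgrounds kept (0.44, adjusted p = 0.102). Mfng, a second Fringe gene, was 1.86-fold higher (0.90 ± 0.28), and Poglut1, an O-glucosyltransferase, 1.5-fold (0.58 ± 0.16). Pofut1, the O-fucosyltransferase whose product Fringe enzymes extend, was 1.86-fold lower (-0.90 ± 0.20). A second, dim Pofut1 probe gave 0.0015 ± 0.18 and did not pass (limma, adjusted p = 0.992 over all probes).

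Ubiquitin ligases and endocytic regulators held the largest rises of the pathway, with 3 higher and 7 lower of 14 tested. That is 71.4% called, beside 64.5% of all genes. Dtx1, a Deltex ligase that binds the intracellular domain, had signals of 2900, 2790 and 4670 units in null cultures and 655, 469 and 643 units in heterozygous cultures. That is 5.76-fold higher (2.53 ± 0.36, limma, adjusted p = 1.21e-06). Its relative Dtx4 had 2010, 1930 and 2280 units in null cultures and 561, 460 and 554 units in heterozygous cultures, 3.96-fold higher (adjusted p = 8.88e-07). Fbxw7, which marks the intracellular domain for degradation, was 1.48-fold higher (0.57 ± 0.085). A second Fbxw7 probe gave 0.23 ± 0.067 and did not pass (limma, adjusted p = 0.0693 over all probes). Among genes that help ligands enter the cell, the Neuralized gene Neurl1a was 2.52-fold lower (-1.33 ± 0.15) and the Mind bomb gene Mib2 1.98-fold (-0.99 ± 0.42). Numbl, of the Numb inhibitors, was lower at -0.79 ± 0.17. With median centring the counts were 2 higher and 1 lower, without Fbxw7, Mib2 and Numbl, and Dtx1, Dtx4 and Neurl1a were called in all 15 alternative settings.

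The tissues in which Notch acts differed in direction. Of 9 arterial genes 3 were higher and 3 lower, or 66.7% called beside 64.5% of all genes. The connexin genes Gja5 (1.28 ± 0.27) and Gja4 (1.04 ± 0.14) and Efnb2, the arterial ephrin (0.55 ± 0.038), rose. A second, dim Efnb2 probe gave -0.01 ± 0.23. Sox17, a factor of arterial endothelium and endoderm, was 5.78-fold lower (-2.53 ± 0.097), and Acvrl1, a BMP receptor of endothelium (-0.86 ± 0.22), and Nrp1, a VEGF coreceptor (-0.53 ± 0.19), also fell. Gja5 was not called with marked backgrounds kept (0.58, adjusted p = 0.0796), nor was Nrp1 (-0.22, adjusted p = 0.136), which was also not called with median centring (-0.55, adjusted p = 0.0615). All 9 endoderm markers were lower beside Sox17, against 33% of all genes. Cubn (-5.54 ± 0.61), Rbp4 (-5.18 ± 0.36) and Foxa1 (-4.34 ± 0.11) were lowest. The summed signal of the 9 markers was 4920 to 10500 units in null cultures and 147000 to 160000 units in heterozygous cultures. The part of endoderm in the Sox17 ratio was not tested.

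In the segmentation clock and presomitic mesoderm list, which also holds Lfng, Dll3 and Hes7, 4 were higher and 1 lower of 7 tested (median 0.86). That is 71.4% called, beside 64.5% of all genes. Meox1, a somite factor, was at least 3.77-fold higher, with the heterozygous signal not well above background on any array. Dll3 and Lfng, given above, were the next, ahead of Mesp1 (0.86 ± 0.18), an early mesoderm factor well above background in the heterozygous RNA on 1 array. Meox1 and Mesp1 therefore passed the brightness filter through the null RNA, where they are higher, and the list median is the value of Mesp1. With both RNAs required to be well above background on every array, 4 genes of the list were tested. Of these, 2 were higher (Dll3 and Lfng) and 1 was lower, with a median of 0.58. Tbx6, which presomitic mesoderm requires, was lower (-0.97 ± 0.031). A second Tbx6 probe gave -0.22 ± 0.10 and did not pass (limma, adjusted p = 0.0892 over all probes). With marked backgrounds kept 1 of the 7 was higher and none lower, with Meox1 at 0.89 (adjusted p = 0.069) and Tbx6 at -0.52 (adjusted p = 0.0792). Hes7, the oscillating repressor of the clock, did not pass (0.22 ± 0.098, limma, adjusted p = 0.0822), and Msgn1, Mesp2 and Ripply2 were not tested.

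Heart muscle genes, beside which Hey1, Hey2 and Jag1 are known in the embryo, were all 10 lower, against 33% of all genes, with a median of -1.41. The myosin genes Myh7 (-2.63 ± 0.36), Myh6 (-2.32 ± 0.10) and Myl7 (-2.05 ± 0.50) were lowest. Their summed signal was 48000 to 61700 units in null cultures and 156000 to 174000 units in heterozygous cultures. Smooth muscle genes, beside which Notch3 and Jag1 are known, were 2 higher and 3 lower of 6. That is 83.3% called, beside 64.5% of all genes. Their summed signals overlapped, at 94700 to 107000 units in null cultures and 101000 to 102000 units in heterozygous cultures. Most of each sum came from Acta2 and Tagln, which moved in opposite directions. Acta2 gave 33300 to 47600 units in null cultures and 57200 to 63900 units in heterozygous cultures. For Tagln these were 42500 to 49000 and 27600 to 32500 units. The overlap therefore does not describe the 6 as a set. Calponin, Cnn1 (1.02 ± 0.25), and Tagln (0.59 ± 0.034) were higher, and Myocd, the smooth and heart muscle coactivator (-1.83 ± 0.26), Des (-1.22 ± 0.31) and Acta2 (-0.52 ± 0.25) lower. With median centring Acta2 was -0.16 and not called (adjusted p = 0.696). Genes of fibroblasts, which the feeder layer could supply, were 1 higher (Thy1, 0.97 ± 0.065) and 4 lower of 7, led by the matrix genes Col1a1 (-2.81 ± 0.38), Postn (-2.14 ± 0.49) and Lum (-1.49 ± 1.03). Of the 7, 71.4% were called, beside 64.5% of all genes. Their summed signal was 17500 to 27600 units in null cultures and 31300 to 46300 units in heterozygous cultures. The part of these cell types in the ratios of the 10 genes was not tested.

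**Figure D4:**
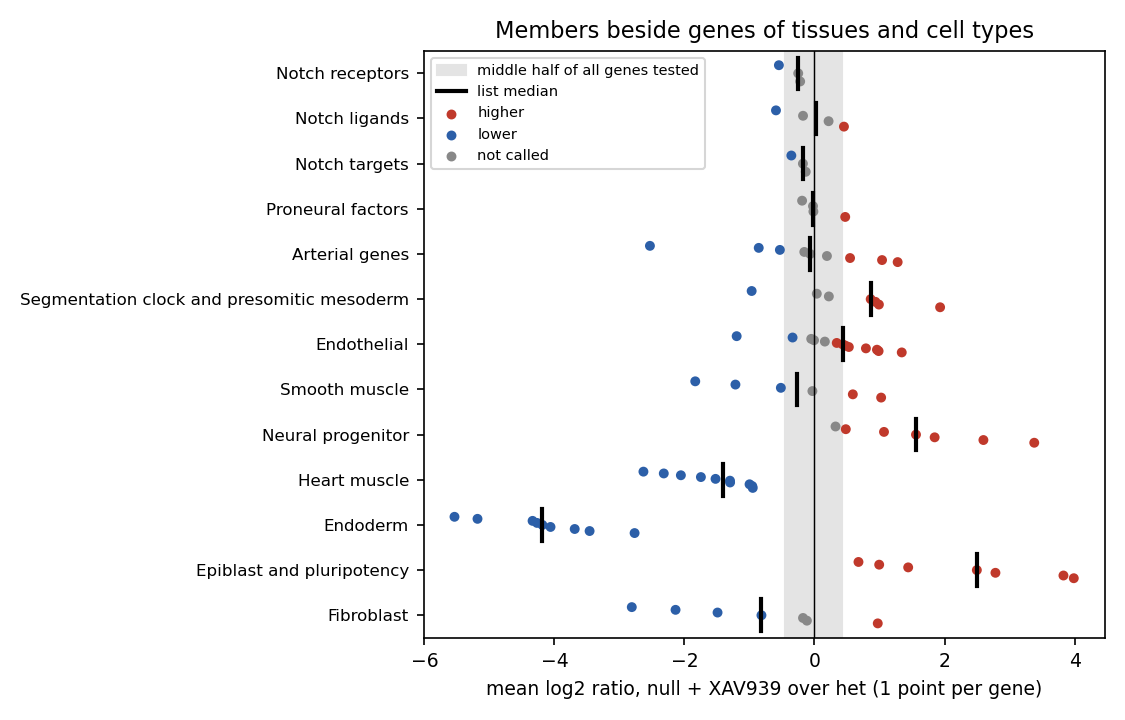
Mean log2 ratio of null with XAV939 over heterozygous, 1 point per tested gene, for the Notch receptors, ligands and targets (top 3 rows) and for lists of tissues and cell types; black bars are list medians and the grey band spans the quartiles of all genes. All 10 Notch genes lie between -0.59 and 0.45, while heart muscle and endoderm genes lie to the left of 0 and epiblast genes to the right.

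The calls among the 10 depended on the processing. Over the alternatives apart from replicate 3 as labelled, 7 of the 10 genes kept their sign in each, and Notch3, Jag1 and Hes1 turned in 1 each, as given above. All 4 calls were lost when local backgrounds marked as outliers were kept and when arrays were median-centred in place of loess. With the slide as a random block 2 were higher (Dll1 and Dll4) and 5 lower (Notch1, Notch2, Notch3, Jag2 and Hey1). Over all genes that setting gave 5117 higher and 5404 lower, against 4636 and 4856 as reported. The slide holding replicates 2 and 3 gave 1 higher (Dll1) and 2 lower (Notch1 and Jag2) by itself, beside 3890 and 4150 of all genes. The other slide holds replicate 1 alone. A dye effect per probe as a second term was a setting chosen after the data were seen. It gave 2 higher and 7 lower, beside 5327 and 5714 of all genes. Replicate 3 is the only array of its dye orientation, so dye and replicate 3 cannot be told apart.

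**Figure D5:**
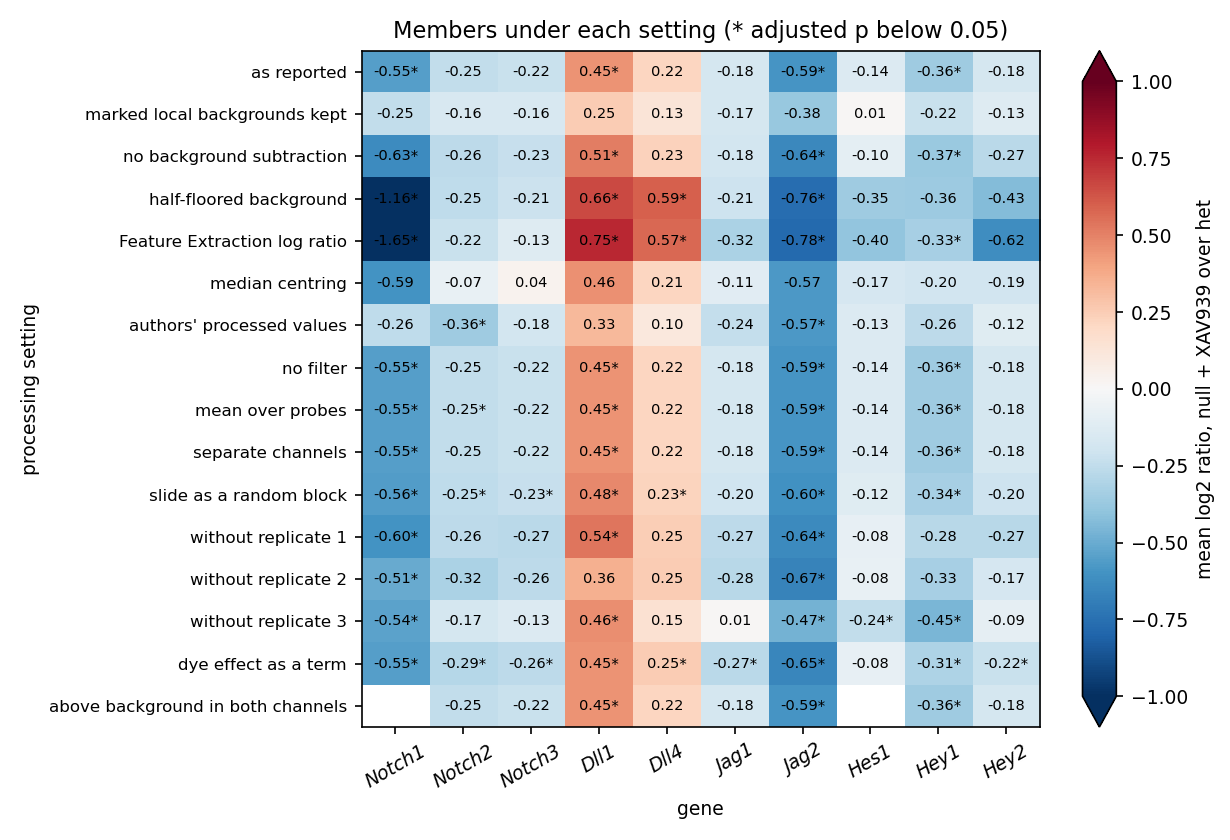
Mean log2 ratio of null with XAV939 over heterozygous for the 10 genes (columns) under each processing setting (rows); blue is lower, red higher, a star marks an adjusted p below 0.05, and blank cells were not tested. Jag2 carries a star in most rows, and the rows with marked backgrounds kept and with median centring carry none.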

How the data were processed

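Per the file headers, the authors scanned 3 two-colour arrays of probe design 026655 (annotated on mm9) with Agilent Feature Extraction 11.5.1.1, or 8.5.1.1 per the submitters' processing notes. The deposited spot and background signals are median pixel intensity values, and the deposited processed signals are intensity values after background subtraction and dye normalization. The deposited ratio column is on the log10 scale, Cy5 over Cy3, per the file headers. The authors' processed values were taken as log2 ratios from their slopes on the scanner ratios (0.688, 0.799 and -0.797; r = 0.885, 0.945 and -0.94). The sources used here do not give their normalization or centring (column medians 0.086, -0.08 and 0.053).

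Outlier spots were left out, and local backgrounds marked as outliers took the median of the unmarked ones in that channel. The median signals then went through normexp correction (offset 50) and loess within arrays in limma 3.58.1 (R 4.3.3). Signals by group are after Aquantile scaling between arrays. Of 39429 probes, 28025 had 1 symbol and 11404 no match. A probe had to be well above background on each array in 1 channel or both, and the brightest tested probe stood for its gene, which left 14710 genes. limma's moderated test (8.67 degrees of freedom, 2 of them residual) compared the mean ratio with 0, with Benjamini-Hochberg adjustment over all genes. Each p-value rests on the gene's own spread between the 3 arrays, drawn towards a variance pooled over all genes, which holds 6.67 of the degrees of freedom. It therefore does not measure the printed SD alone. The number of arrays limits the precision (median SD 0.166). The fit was tested on simulated data. A fold given as "at least" sets the bright group's mean against the higher of the dim probe's own signal and the lowest signal well above background. Replicate 3 was turned, against its dye labels.

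Genes outside the 10 were named where they were among the 3 largest called changes of a list in a direction, plus Rbpj, Notch4, Dll3, Hes5, Heyl, Nrarp and Hopx. Neurog1, Hes7, Zic1, Sox1 and Egfl7 were added after their values were seen. The members and lists were chosen with earlier results of these data known. Promoter sequences are from RefSeq (GRCm38.p6).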

Additional observations from a re-analysis of the deposited data

How the results depend on the processing

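Outlier-marked local backgrounds kept in place of replaced gave 2666 genes higher and 2255 lower over the whole table, against 4636 and 4856, with 0 and 0 of the 10 Notch genes called, against 1 and 3. Median centring gave 3039 and 2023 genes, again with 0 and 0 Notch genes; it moved the median log2 ratio of all genes to 0.10, against -0.01, and the share of calls that were higher to 60%, against 48.8%. Of the 10, floored background subtraction gave 2 higher and 2 lower, beside 4466 and 4501 of all genes. The scanner software's log ratio gave 2 and 3, beside 4829 and 4612. The authors' processed values gave 0 and 2, beside 3425 and 3781. The slide as a random block gave 2 higher and 5 lower, beside 5117 and 5404 of all genes. A dye term, chosen after the data were seen, gave 2 higher and 7 lower, beside 5327 and 5714 of all genes. The block used a correlation of -0.363 estimated from the residuals, since limma's own estimate could not be computed with 3 arrays. Leaving out 1 replicate gave 3514 to 5278 genes higher and 3717 to 5340 lower, with 0 to 1 and 2 to 4 of the 10. With replicate 3 used as labelled, limma called 0 genes higher and 0 lower (13 and 27 at an unadjusted p below 0.05) and 0 of the 10 in either direction; 5 of the 10 changed sign (Notch2 0.02, Notch3 0.04, Dll4 -0.02, Jag1 0.19 and Hey2 0.05), and so did 3 marker genes: Cldn5 at -0.134, Tek at 0.0468 and Acta2 at 0.00196. Pathway genes outside the 10 numbered 8 higher and 9 lower with marked backgrounds kept, and 10 and 4 with median centring, against 12 and 18. The causes of these changes were not tested. No paired analysis was possible because each array's ratio is already the difference of its own pair. The low signal over background of Notch1, Hes1, Dll4 and Hey2 limits what their ratios can show.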
